A study of Mus musculus with 6 samples.

Results

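The genes described here encode the NADPH oxidases of the DUOX and NOX families and the proteins they need to work. The catalytic subunits were DUOX1, DUOX2, NOX1, NOX4, NOX5 and CYBB, which encodes NOX2. The partners were the maturation factors DUOXA1 and DUOXA2, the membrane subunit CYBA and the activator NOXA1. These 10 genes were taken by name from the 58735 genes of the count table, and each name matched 1 row. The family was selected with the difference between the groups already known, that of DUOX2 included, so the levels and differences of its members are given as a description. The fit over all genes included those that passed its filter, but no p-value or FDR of a member is used as evidence.

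RNA-Seq compared parental 22Rv1 cells given vehicle (3 libraries) with the resistant subline 22Rv1 BL-B01D1_R (3 libraries), which was grown under stepwise higher concentrations of BL-B01D1. 22Rv1 cells come from human prostate cancer, and BL-B01D1 is a bispecific antibody-drug conjugate that binds EGFR and HER3 and carries the camptothecin-type payload Ed-04. The resistant libraries were samples of 1 subline and the sources used here do not say whether they came from separate cultures, so the spread between libraries may be technical and did not cover a second selection. Although the labels give the organism as mouse, the gene identifiers are human and the genome build listed with them is hg38, and the genes were read as human.

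NADPH oxidases sit in membranes, take electrons from NADPH on the cytosolic side and pass them to oxygen on the other side. NOX1 and NOX2 release superoxide, and the DUOX enzymes release hydrogen peroxide. A DUOX protein needs a maturation factor to leave the endoplasmic reticulum, and is switched on by calcium. The usual partner is DUOXA1 for DUOX1 and DUOXA2 for DUOX2. DUOX2 is best known from the thyroid, where its peroxide is used to couple iodide to thyroglobulin, and both DUOX enzymes act in host defence at the surface of the airways and the gut.

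Counts on genes totaled between 13821639 and 17251491 per library, so 3 counts equalled 0.174 to 0.216 CPM (a library's counts brought to a size of 1e6 after TMM adjustment). The 10 genes together took only 267 to 386 counts in a library. Pairs of libraries of 1 group differed by more than sampling noise (chi-square over degrees of freedom 1.77 to 2.47, and 20.7 to 24.2 across groups), and all 6 libraries were counted as separate samples. The prostate genes KLK2, KLK3, HOXB13 and FOLH1 and the epithelial genes EPCAM, KRT8 and KRT18 were detected in all 6 libraries. Of 10 markers of leukocytes, endothelium, fibroblasts, basal and neuroendocrine cells, 5 had at most 3 counts in every library, and the summed level of the 10 was 149 to 163 CPM in parental and 122 to 130 CPM in resistant libraries. That list moved with the groups mainly through the secretory granule gene CHGA, which fell (log2 fold change −2.26, SE 0.087, edgeR FDR 2.49e-24), whereas the neuroendocrine marker SYP had a log2 fold change of 0.04 (FDR 0.531). Its part in the values below was not tested.

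DUOX2 mRNA was low in parental cells and close to the detection limit in the resistant subline. Parental libraries 1, 2 and 3 held 36, 19 and 16 counts, and resistant libraries 1, 2 and 3 held 1, 5 and 0 counts. Every resistant library lay under every parental library, and the highest resistant library (0.340 CPM) was below the lowest parental library (1.13 CPM). The mean was 1.46 ± 0.546 CPM (SD, n = 3) in parental and 0.133 ± 0.181 CPM (SD, n = 3) in resistant cells, a log2 fold change of −3.46 (SE 0.58). Summed over libraries, 71 counts stood against 6, an 11.7-fold difference with a 95% counting interval of 5.13 to 33.0. That interval covers counting error only. The counts varied 3.34 times as much as counting alone gives in parental libraries and 3.97 times as much in resistant libraries. The fitted value reached −5.27 without resistant replicate 2, the library that held 5 of the 6 resistant counts, and was −2.88 at the other end when resistant replicate 3 was left out. In bulk RNA, fewer cells carrying DUOX2 mRNA and less of it per cell cannot be told apart.

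DUOXA2, the maturation factor of DUOX2, was rarer still. Parental libraries 1, 2 and 3 gave 4, 3 and 5 counts for it, and resistant libraries 1, 2 and 3 gave 0, 0 and 1. Again no resistant library reached a parental one. The sums were 12 and 1, an 11.9-fold difference with a counting interval of 1.76 to 509, so the size of the difference is poorly fixed at this depth. DUOXA2 was left out of the fit by the low-count filter.

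DUOX1, the paralog of DUOX2 that encodes the same kind of peroxide-producing enzyme, had overlapping values in the lines. Its counts were 18, 25 and 14 in parental and 17, 16 and 24 in resistant libraries. Both groups summed to 57 counts, a ratio of resistant to parental of 1.01 with a counting interval of 0.686 to 1.48, and the log2 fold change was 0.01 (SE 0.34, −0.17 to 0.22 with single libraries left out). DUOXA1, the maturation factor of DUOX1, had 0, 5 and 1 counts in parental and 0, 2 and 0 counts in resistant libraries. These values overlapped and lay mostly under 3 counts, so no difference was detectable at this depth.

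**Figure D1:**
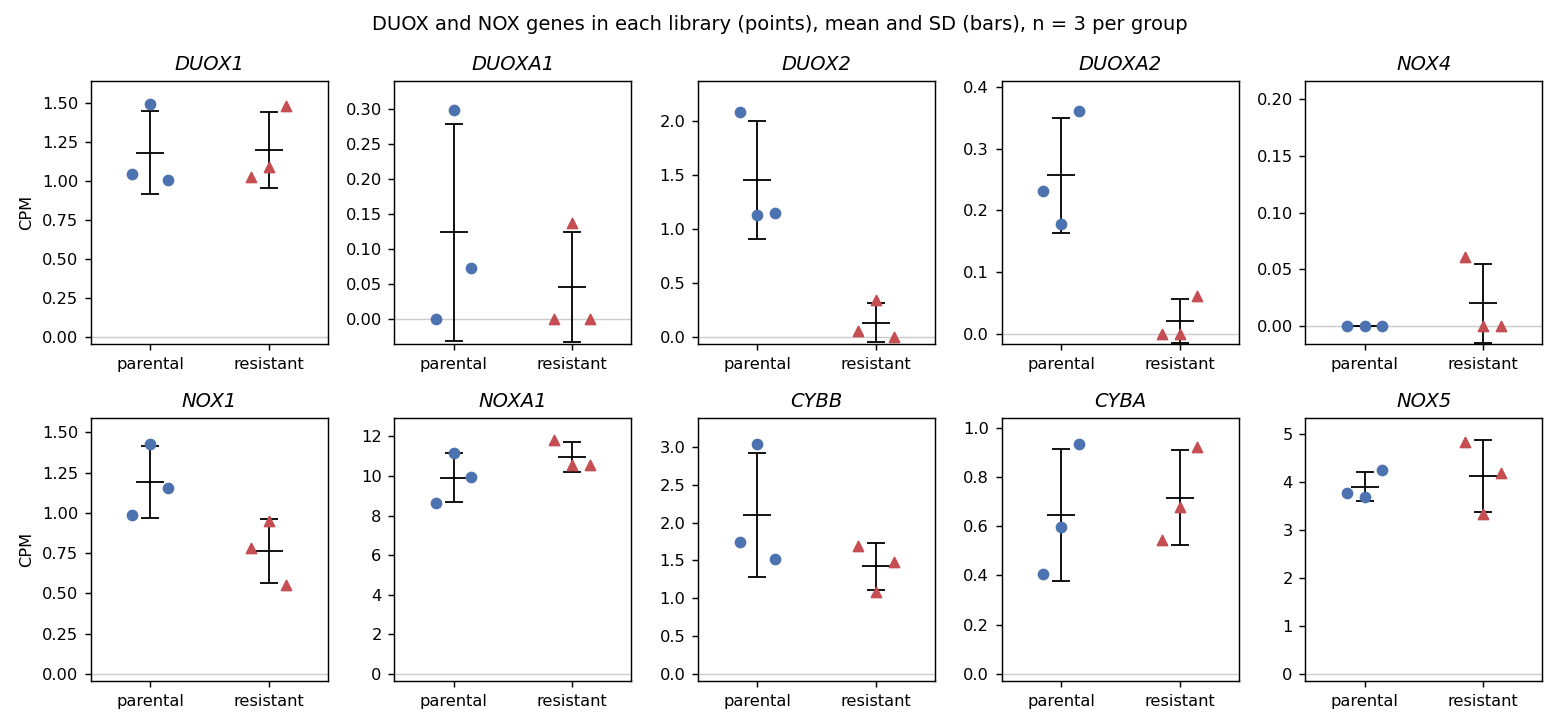
Level of each of the 10 genes in CPM (vertical axis, its own linear scale in each panel) in the 3 parental libraries (circles) and the 3 resistant libraries (triangles), with mean and SD as bars. The resistant libraries lie under all parental libraries in DUOX2, DUOXA2 and NOX1, while NOXA1 is the most abundant member in both lines and NOX4 has 1 count in 1 library.

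Taken as enzyme and maturation factor, DUOX2 with DUOXA2 gave 40, 22 and 21 counts in parental libraries and 1, 5 and 1 counts in resistant libraries. DUOX1 with DUOXA1 gave 18, 30 and 15 against 17, 18 and 24. In both pairs the enzyme gave most of the counts, so the sums say little about the maturation factors. In parental cells the sums were 83 for the DUOX2 pair and 63 for the DUOX1 pair, but parental library 2 went the other way and without parental library 1 the sums were 43 and 45 (a comparison added after the data were seen). In resistant cells the sums were 7 and 59, with the DUOX1 pair higher in all 3 libraries. Of the counts on DUOX1 and DUOX2 together, DUOX2 took 55.5% of 128 in parental cells (95% exact binomial interval 46.4 to 64.3%, counting error only). In resistant cells it took 9.52% of 63 (3.58 to 19.6%).

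The 4 DUOX genes lie side by side on chromosome 15 of hg38 within 72.9 kb. DUOX2 (ENSG00000140279, chr15:45092650-45114344, reverse strand) and DUOXA2 (ENSG00000140274, chr15:45114321-45118421, forward strand) start next to each other and run apart. DUOXA1 (ENSG00000140254, chr15:45117367-45129938, reverse strand) and DUOX1 (ENSG00000137857, chr15:45129933-45165576, forward strand) form a second such pair, so that each enzyme starts beside its own maturation factor. The annotated genes overlap by 24 bases at DUOX2 and DUOXA2, by 6 bases at DUOX1 and DUOXA1, and by 1055 bases at the ends of DUOXA1 and DUOXA2. DUOX1 also shares 12913 bases of its span with AC051619.6 on the opposite strand, which had 0 counts in every library. Whether the counting used strand is not given in the sources used here, and without it reads in these overlaps cannot be assigned to one gene or the other. The difference was thus seen in DUOX2 and DUOXA2, the pair at lower coordinates. In the pair at higher coordinates DUOX1 overlapped between the lines. DUOXA1 was too rare to place, with summed counts of 6 and 2 and a ratio of resistant to parental of 0.336 (counting interval 0.0332 to 1.88).

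The 5 tested genes on either side of the cluster moved in both directions. Past an FDR of 0.05, TRIM69 (log2 fold change 0.29, FDR 0.00301), a ubiquitin ligase gene, and SPG11 (0.23, FDR 2.68e-06) rose, and SLC30A4 (−0.39, FDR 0.00407), a zinc transporter gene, and GATM (−1.70, SE 0.41, FDR 0.00101) fell. GATM encodes the first enzyme of creatine synthesis and lies 196 kb beyond the cluster. It had 21, 19 and 32 counts in parental and 10, 7 and 5 in resistant libraries, and it was the sole neighbor that also passed an absolute log2 fold change of 1. The nearest genes did not pass the test. They were SORD, the sorbitol dehydrogenase gene 15.5 kb below DUOX2 (−0.13, FDR 0.0587), and SHF, 1.64 kb beyond DUOX1 (−0.53, SE 0.30, FDR 0.186). The others that did not pass were SORD2P (0.09, FDR 0.624), B2M (FDR 0.999), which encodes the light chain of MHC class I, SPATA5L1 (−0.12, FDR 0.187) and HMGN2P46 (0.21, FDR 0.718). Over all 17142 tested genes, 17.1% were higher and 18.4% lower in the resistant subline at this FDR.

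**Figure D2:**
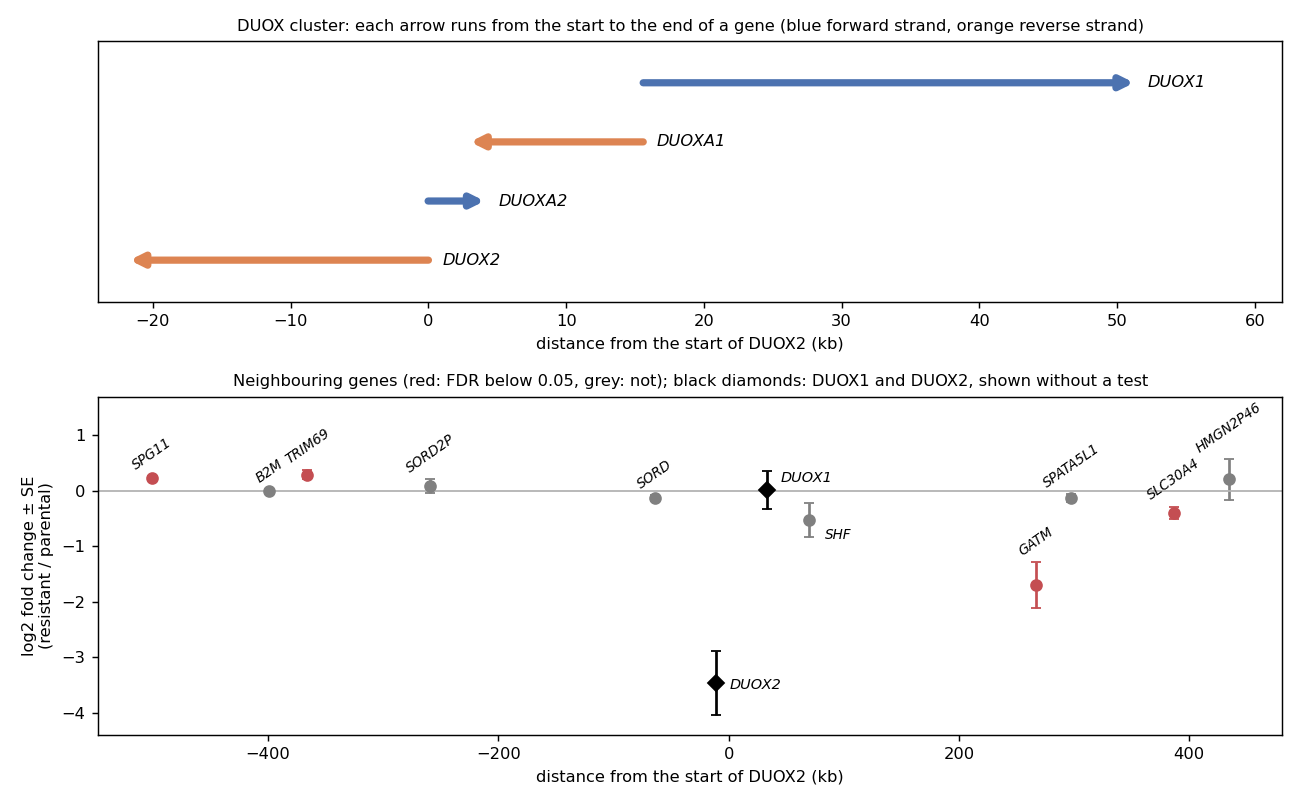
Upper panel, the 4 DUOX genes drawn to scale as arrows in the direction of transcription, by distance from the start of DUOX2 in kb. Lower panel, log2 fold change with its SE for the 10 neighboring genes (red, FDR below 0.05) and for DUOX1 and DUOX2 (black, no test). DUOX2 stands at −3.46 and DUOX1 at 0.01, and the neighbors lie between −1.70 and 0.29.

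The remaining catalytic subunits were expressed at low levels. NOX1, the superoxide-producing enzyme of colon epithelium (ENSG00000007952, chromosome X, reverse strand), had 17, 24 and 16 counts in parental and 13, 14 and 9 counts in resistant libraries. In CPM, the resistant libraries all lay under the parental ones, with means of 0.764 ± 0.199 and 1.19 ± 0.224 (SD, n = 3). The log2 fold change was −0.64 (SE 0.38), and the ratio of summed counts, resistant to parental, was 0.637 with a counting interval of 0.408 to 0.984. A difference of this size is much smaller than that of DUOX2 and rests on 57 and 36 counts.

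CYBB, the catalytic subunit of the phagocyte oxidase (ENSG00000165168, chromosome X, forward strand), had 30, 51 and 21 counts in parental and 28, 16 and 24 counts in resistant libraries. It shares 33451 bases with AF241726.2 on the same strand, which had 0 counts in every library, and reads in the shared stretch could belong to either. The groups overlapped, and the parental libraries varied 5.10 times as much as counting alone gives. The log2 fold change of −0.57 (SE 0.30) came down to −0.20 when parental replicate 2 was left out. The leukocyte genes PTPRC and ITGAM had 0 counts in that library.

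NOX5, an oxidase that is switched on directly by calcium and needs no partner subunit (ENSG00000255346, chromosome 15, forward strand), overlapped between the lines. Its counts were 65, 62 and 59 in parental and 80, 49 and 68 in resistant libraries, with a log2 fold change of 0.09 (SE 0.19). NOX5 shares 16287 bases of its span with SPESP1 on the same strand, which had 178 to 237 counts per library, and reads in the shared stretch could belong to either. NOX4, the oxidase known from kidney that makes peroxide without a cytosolic activator, had 0 counts in all parental libraries and 1 count in resistant library 1. A library with 0 counts allows a level of up to 3 counts, at most 0.216 CPM here, and no fold is given.

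Among the partners, NOXA1 (ENSG00000188747, chr9:137423350-137434406, forward strand), the activator that supports NOX1, was by far the most abundant member. It had 149, 187 and 138 counts in parental and 196, 155 and 171 counts in resistant libraries. The means of 9.91 ± 1.25 and 11.0 ± 0.742 CPM (SD, n = 3) overlapped in their libraries, with a log2 fold change of 0.15 (SE 0.12). NOXA1 alone took 47.6% of the counts on the 10 genes in parental and 56.5% in resistant cells. CYBA, the membrane subunit that stabilizes NOX1, NOX2 and NOX4 (ENSG00000051523, chromosome 16, reverse strand), had 7, 10 and 13 counts against 9, 10 and 15. Its groups overlapped too, with a log2 fold change of 0.18 (SE 0.44).

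**Figure D3:**
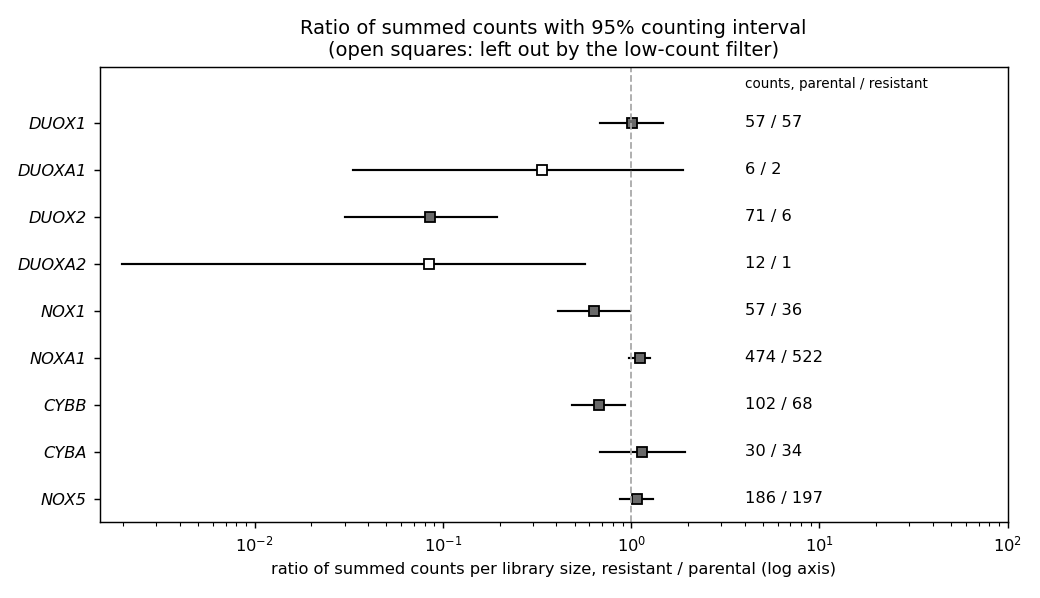
Ratio of the summed counts per library size, resistant to parental, on a log axis for 9 of the 10 genes (NOX4, with 1 count in all, is not drawn), with 95% intervals that cover counting error only and the summed counts at the right. Open squares mark genes that the low-count filter left out. DUOX2 and DUOXA2 lie near 0.0852 and 0.0840, and DUOX1, NOXA1, CYBA and NOX5 lie near 1.

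Per transcript length, in FPKM (counts per kilobase of gene length, scaled to the total counts of the library), the order of levels differed between the lines, with NOX5 at rank 4 in parental and rank 2 in resistant cells and DUOX2 at ranks 6 and 7. In parental cells NOXA1 (5.93 ± 0.770 FPKM; SD, n = 3) was followed by CYBB (0.476) and NOX1 (0.472), then NOX5 (0.313), then CYBA (0.193), DUOX2 (0.149), DUOX1 (0.135), DUOXA2 (0.101), DUOXA1 (0.0334) and NOX4 (0). The libraries of neighbors in that order did not overlap after NOXA1, after NOX1 and after NOX5, and all other neighbors overlapped. In resistant cells NOXA1 (6.49 ± 0.432 FPKM; SD, n = 3) came first, then NOX5 (0.326), CYBB (0.318), NOX1 (0.300), CYBA (0.212) and DUOX1 (0.135), which each overlapped the next. Below a gap after DUOX1 came DUOX2 (0.0135), DUOXA1 (0.0121), DUOXA2 (0.00799) and NOX4 (0.00327). DUOX2 thus stood level with DUOX1 in parental cells and with the barely detected genes in resistant cells. Among 17195 protein-coding genes with a count, NOXA1 stood at percentile 60.2 of parental FPKM and the other members at 28.8 or below.

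A gene was called at an FDR below 0.05 with an absolute log2 fold change above 1. By that rule 1 of the 7 members that passed the low-count filter, DUOX2, was called lower and 0 were called higher, where 2.84% of all tested genes were called lower and 2.53% higher. Of the 10 members, 3 (DUOX2, DUOXA2 and NOX1) had every resistant library under every parental one, 2 of them among the tested genes, and 0 had every resistant library above. Over all tested genes these shares were 22.8% and 22.1%. Because the members were selected on this contrast, nothing is read from these counts. The median log2 fold change of the 7 was 0.01, beside 0.0038 over all tested genes.

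The 5 genes whose profile over the 6 libraries was most like that of DUOX2, by the root mean square difference of centered log2 CPM, were PRRX1 (0.252), KCNK17 (0.451), SDK1 (0.457), PLCXD3 (0.459) and FBN3 (0.478). PRRX1, a homeobox transcription factor of mesenchyme, had 85, 62 and 51 counts in parental and 9, 13 and 4 in resistant libraries. Like DUOX2, it was highest in parental library 1 and its resistant counts were highest in library 2, and so were those of KCNK17, PLCXD3 and FBN3. These genes were picked for likeness over the same libraries, so nothing further is read from this order. KCNK17, a potassium channel gene, had 54, 52 and 38 against 2, 8 and 4. SDK1, a cell adhesion gene, had 32, 22 and 18 against 2, 2 and 1. PLCXD3 had 53, 43 and 28 against 5, 11 and 6, and the fibrillin gene FBN3 had 79, 52 and 43 against 8, 10 and 8. Of the members, 6 others passed the low-count filter and could be ranked by this measure, and DUOXA1, DUOXA2 and NOX4 could not. Among 17141 genes ranked, NOX1 came at 875 and CYBB at 3218, and DUOX1, NOX5, NOXA1 and CYBA came at 12059 or later.

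The further proteins that the oxidases use were described from lists of 86 genes around the pathway, of which 62 were tested. Past the FDR, 16 were higher, 9 were lower and 37 were neither, against 17.1% and 18.4% of all tested genes. Their median log2 fold change was 0.03, and 3 were called, RAC2 and IL4R lower and AOX1 higher. On the log2(FPKM + 1) scale, which understates changes of low genes, their differences were −0.84, −0.25 and 0.49, under the fold threshold. The 24 genes that were not tested had at most 15 counts in any library.

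Of 13 further oxidase subunits and regulators, 7 were tested, and 2 rose, 1 fell and 4 did not pass. RAC2, the small GTPase that activates the phagocyte oxidase, fell from 73, 64 and 66 counts to 20, 14 and 28 (log2 fold change −1.70, SE 0.25, FDR 3.57e-07, edgeR). The groups were separate, with a 3.25-fold difference in summed counts (counting interval 2.43 to 4.39). RAC1, its widely expressed relative and the most abundant gene of the list at 107 FPKM, had a log2 fold change of −0.05 (FDR 0.235). The scaffold genes SH3PXD2A (0.86, FDR 1.80e-07) and SH3PXD2B (0.23, FDR 0.00596), named here after their values were seen, rose. Other organizers of NOX1 and NOX2 were almost missing. NOXO1, which joins NOXA1 on NOX1, had 2, 2 and 2 counts against 3, 3 and 0, NCF1 had at most 2 counts in a library and has near-identical copies that can split its reads, and NCF4 had 0 in all 6 libraries, as had NOX3.

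The peroxidases that use DUOX peroxide were scarcely detected. PXDN had 0 counts in every library, and LPO, the lactoperoxidase of secretions, had at most 4. EPX, the eosinophil peroxidase and the most abundant of 6 such genes at 0.365 FPKM, was the one tested and did not pass (log2 fold change 0.03, FDR 0.960). Of 9 genes of iodide handling and thyroid identity, 4 were tested, with 1 higher, 1 lower and 2 neither. SLC5A5, the sodium-iodide symporter and the most abundant at 6.59 FPKM, fell by 0.49 on the log2 scale (SE 0.092, FDR 4.23e-05), from 383, 382 and 375 counts to 246, 281 and 282. PAX8, a thyroid and kidney transcription factor, rose by 0.36 (FDR 0.00974). Thyroglobulin (TG) had 1 count in parental library 1 and 0 in every other library.

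Of 4 aquaporins that conduct hydrogen peroxide, 2 were tested. AQP3, the most abundant at 11.8 FPKM, fell by 0.84 on the log2 scale (SE 0.075, FDR 2.55e-12), from 636, 557 and 475 counts to 326, 285 and 312. Its groups did not overlap, although the change stayed under the fold threshold. AQP11 did not pass (−0.23, FDR 0.600).

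**Figure D4:**
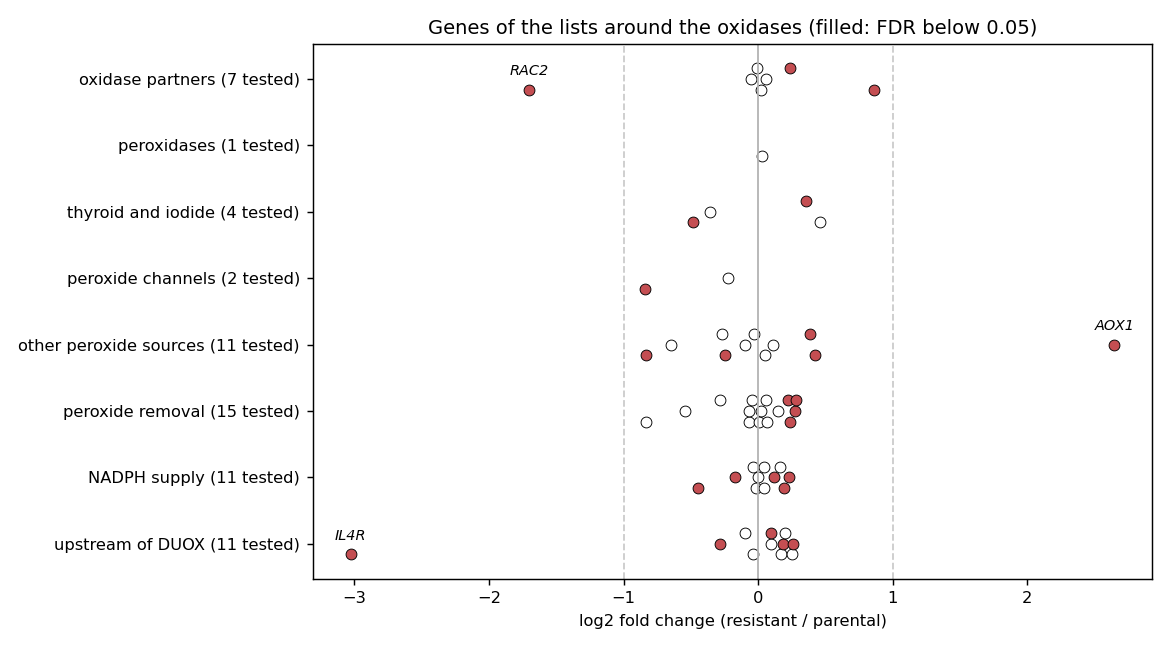
Log2 fold change (horizontal axis, resistant over parental) of each tested gene of 8 lists around the oxidases, with filled points for an FDR below 0.05 and dashed lines at the fold threshold of 1. Most points lie near 0, and RAC2, IL4R and AOX1 are the genes past both thresholds.

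Other enzymes that make peroxide moved in both directions. Of 15, 11 were tested, with 3 higher, 2 lower and 6 neither. AOX1, the aldehyde oxidase that yields peroxide as a byproduct, rose from 9, 7 and 6 counts to 40, 49 and 49 (log2 fold change 2.65, SE 0.34, FDR 2.09e-08). The groups were far apart, with a 6.33-fold difference in summed counts (counting interval 4.01 to 10.4). Chosen after their values were seen, the monoamine oxidase MAOA (0.42) and the polyamine oxidase PAOX (0.39) rose, and the oxidoreductases of the endoplasmic reticulum ERO1A (−0.25) and ERO1B (−0.83) fell. QSOX1, the most abundant at 29.2 FPKM, did not pass (−0.03, FDR 0.470).

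Of 16 genes that remove superoxide or peroxide, 15 were tested, with 4 higher, 0 lower and 11 neither. GPX4, which reduces lipid peroxides and was the most abundant at 252 FPKM, rose by 0.24 on the log2 scale (FDR 6.26e-10). The others that rose were SOD2 (0.22), PRDX1 (0.27) and GPX1 (0.28), and catalase (CAT) did not pass (−0.07, FDR 0.221). All 4 increases were small. Of the 11 genes that supply NADPH, the electron source of the oxidases, all were tested and 3 rose (ME2, IDH1 and TALDO1), 2 fell (ME1 and TKT) and 6 did not pass. PGD, the most abundant at 100.3 FPKM, had an FDR of 0.992.

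The cytokine pathways known to induce DUOX genes in epithelia were covered by 13 genes. Of the 11 tested, 3 rose, 2 fell and 6 did not pass. IL4R, the receptor chain through which interleukin-4 and interleukin-13 raise DUOX1 in airway cells, fell from 22, 17 and 21 counts to 1, 3 and 3 (log2 fold change −3.03, SE 0.53, FDR 1.05e-05). No resistant library came near a parental one, and the summed counts of 60 and 7 gave an 8.50-fold difference (counting interval 3.88 to 22.0). IL13RA1, which pairs with it, rose by 0.18 (FDR 0.0254), and STAT6, the transcription factor downstream and the most abundant of the list at 20.9 FPKM, rose by 0.10 (FDR 0.0380). IFNGR1, a receptor chain for interferon gamma, fell by 0.29 (FDR 0.00285). NOD2 had 0 counts in every library.

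Next to the members outside the DUOX cluster, 12 genes were tested, the nearest on each side. Past the FDR, 1 was higher, 6 were lower and 5 were neither, where 17.1% of all tested genes were higher and 18.4% lower. Named after their values were seen, MVD beside CYBA fell by 0.44 (FDR 5.63e-12) and XK beside CYBB fell by 0.66 (FDR 8.75e-07), whereas EXD3, which lies 0.088 kb from NOXA1, did not pass (0.16, FDR 0.178). Over all 22 neighbors of members, 3 were higher and 8 lower, with a median log2 fold change of −0.13.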

How the data were processed

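The authors trimmed reads with fastp, mapped them to hg38 with HISAT2 (2.0.5) and counted them per gene with featureCounts (1.5.0-p3). The deposited table holds raw counts for 58735 genes with positions and, as another quantity listed by the authors, gene length in bases. The annotation release and the use of strand are not given in the sources used here. The groups were compared with the quasi-likelihood test of edgeR (4.0.16, R 4.3.3) after filterByExpr and TMM scaling, with Benjamini-Hochberg adjustment over 17142 genes. Members that passed the filter entered this fit, and their calls are counted but no p-value of a member is given. FPKM was computed from total counts and gene length. Counting intervals are exact conditional 95% intervals on summed counts. SOD2 has more than 1 row, and the first, with nearly all its counts, was used. Columns of per-sample values not used numbered 0. No human sequence was used here.

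Members and lists were chosen with earlier results of these data known. Named genes are the 10 members, every list gene called, the most abundant gene of each list by FPKM, all neighbors of the DUOX cluster and the 5 genes most like DUOX2 (prior count 2). Others with values are markers, list genes or neighbors named after their values were seen. Some genes of the lists are not reported here. Alternatives were limma-voom and limma on log2(FPKM + 1) (limma 3.58.1), DESeq2 (1.42.0), library size alone, no low-count filter, a minimum of 10 counts in each library, a larger prior count (5), the replicate number as a block, and each library left out in turn. The fits were also run on simulated data in which only more abundant genes were changed. That run does not cover genes as rare as DUOX2 or IL4R.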

Additional observations from a re-analysis of the deposited data

How the results depend on the processing

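Of 434 genes called higher and 487 lower, 248 and 287 were called with at least 10 counts in every library, and 114 and 67 with limma on log2(FPKM + 1), which shifts the split toward genes called higher. In both of these, 0 members were called in place of 1, DUOX2. With at least 10 counts in every library 4 members were tested and DUOX2 was not, and on the FPKM scale, where the members other than NOXA1 are below 1, its value was −0.18. On that scale RAC2 (−0.84), IL4R (−0.25) and AOX1 (0.49) also fell under the fold threshold, and the list genes past the FDR and higher were 10 in place of 16. IL4R and AOX1, like DUOX2, were not tested with the stricter minimum. DUOX2 was −2.01 with a prior count of 5 and lay between −3.84 (limma-voom) and −3.44 (the replicate block) under the other tests, scalings and filters, and between −5.27 and −2.88 with 1 library left out. Leaving out single libraries gave 415 to 450 genes called higher and 471 to 493 lower. DUOX1, NOX5 and CYBA changed sign within those fits, as far as −0.17, −0.04 and −0.08. Replicate numbers 1 to 3 occur in both groups, but deviations of same-numbered libraries correlated at −0.0081, −0.020 and −0.016 and 0 of 3 numbers matched best with themselves, so the numbers were not taken to pair the libraries. The replicate block gave 418 higher calls and 471 lower calls, 1 of them a member. Members other than NOX5 and NOXA1 had at most 51 counts in a library, which limits the differences that could be detected in them.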
